A study of Homo sapiens with 6 samples.

Results

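The genes described here encode the translation initiation factors, whose mRNAs were measured in RNA from extracellular vesicles (EVs) of human T cells. They were chosen by symbol: every gene beginning EIF1 to EIF6 that had a probe set annotated with that 1 symbol, read from its brightest probe set over the 6 arrays. Of 50 such genes, 7 whose symbols begin with EIF4E were set aside, which left 43 of the 18417 genes on the array. No pseudogene was among them, 42 of the 43 encode proteins, and the 43rd, EIF3J-DT, is a noncoding transcript divergent from EIF3J that was kept and counted apart. The rule itself used no measured value except the mean over both groups, to pick a probe set. It was set with earlier results of these data known.

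The CD47- EVs came from JinB8, a mutant line of the Jurkat T cell leukemia that lacks the cell surface receptor CD47, and the WT EVs came from Jurkat cells. Each group had 3 preparations, 1 array each, which the labels call culture replicates. Both lines were kept in serum-free HITES medium for 24 to 48 h before the vesicles were collected with an Exo-quick or an Exo-spin kit (the labels do not say which kit served which preparation), and 300 ng of RNA was labeled per array. JinB8 is a single mutant line, so a difference between the groups cannot be told apart from any other difference between these lines.

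Translation initiation brings the small ribosomal subunit, the initiator tRNA and the mRNA together. eIF2 carries the initiator tRNA as a complex with GTP, and eIF2B recharges eIF2 with GTP. Kinases that phosphorylate eIF2 slow this recharging under stress. eIF1 and eIF1A keep the small subunit open for scanning and guard the choice of start codon. eIF3 is a large assembly of subunits that organizes the small ribosomal subunit and joins it to the mRNA, whereas the eIF4 factors recognize the capped mRNA, unwind it and bridge it to eIF3. eIF5 triggers hydrolysis of GTP by eIF2, eIF5B joins the large subunit, and eIF6 keeps unused large subunits apart from small ones.

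Many mRNAs of the translation machinery begin with a C followed by an unbroken run of pyrimidines, the terminal oligopyrimidine (TOP) start through which growth signaling controls their translation. RefSeq promoter windows (GRCh38.p14) were read for 36 of the 43 genes. The other 7 were not read here, which does not mean that they lack a window, and the counts of their starts leave them out. A start was called TOP-like when the annotated start was a C that opened a run of at least 5 C or T, read on the strand of the gene only. The windows below show the called genes with a window, the eIF3 and eIF4 genes with a TOP-like start, and EIF2S3 with its copy EIF2S3B. Each gives 15 bases before the start and 15 bases from it, with the pyrimidine run from the start in capitals.
EIF1, chr17:41688870-41688899, plus strand: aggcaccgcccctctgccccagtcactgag
EIF3I, chr1:32222392-32222421, plus strand: accttttccggtcttactcacgttgcggcc
EIF3D, chr22:36529152-36529181, minus strand: gcgcgcgcatgtttcCTCTTTTCCTggttt
EIF3F, chr11:7987322-7987351, plus strand: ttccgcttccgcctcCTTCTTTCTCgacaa
EIF3K, chr19:38619173-38619202, plus strand: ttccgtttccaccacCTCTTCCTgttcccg
EIF3M, chr11:32583816-32583845, plus strand: gcgcggcccagttccCTTTTCCggtcggcg
EIF4A2, chr3:186783562-186783591, plus strand: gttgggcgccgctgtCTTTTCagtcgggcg
EIF4B, chr12:53006441-53006470, plus strand: ttgcctcatccgggtCTTTTgcgttctctt
EIF2S3, chrX:24054941-24054970, plus strand: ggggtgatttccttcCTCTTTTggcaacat
EIF2S3B, chr12:10505875-10505904, plus strand: ggggtgactttcttcCTCTTTTggcaacat

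TOP-like starts were found for 10 of the 36 genes, 27.8%, and for 5.14% of all genes in the promoter table. By window rather than by gene, 4.07% of all windows in the table held one. They were spread unevenly over the factors. Those of eIF2 held 4 of 5, with EIF2A, EIF2D, EIF2S3 and EIF2S3B, those of eIF3 held 4 of 7 and those of eIF4 held 2 of 6, while none was found among the others. The same reading found one in 38 of 54 ribosomal protein genes, the best known class of TOP mRNAs. A match describes these letters at 1 annotated start and is not a measure of translation.

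All values are log2 expression values from robust multi-array average (RMA), on which a difference of 1 is a doubling. RMA sets each array to a common distribution, so a higher value is a larger share of the RNA in the vesicles, and fewer vesicles of a kind cannot be told apart from less of an mRNA per vesicle. Array medians lay between 5.08 and 5.14, and any pair of arrays correlated at 0.981 to 0.989 over the 18417 genes. Olfactory receptor genes, which T cells are not known to use, served as a gauge of background: their 338 genes had a median of 5.49 and a 95th percentile of 6.79. T cell markers lay above the gauge's median for 8 of 13 genes and above its 95th percentile for 2. The counts were 2 of 5 and none for B cell markers, 3 of 5 and 1 for epithelial markers, and 1 of 4 and none for myeloid markers. Erythroid markers had 2 of 3, liver markers 2 of 5 and endothelial markers 1 of 5 above the median, with none above the 95th percentile. The CD47 probe set read 4.73 ± 0.19 in CD47- EVs and 4.71 ± 0.02 in WT EVs (SD, n = 3 each), below the median of the gauge in both. Its log2 difference was 0.02 (limma adjusted p = 0.987), so the probe set does not check the labels.

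EIF1, EIF3I and EIF3A passed the test, and all 3 were higher in CD47- EVs (limma, Benjamini-Hochberg adjusted p under 0.05 over all 18417 genes). That was 6.98% of the 43 genes, against 0.668% of all genes called higher. None was called lower, against 0.0163% of all genes, and 40 did not pass. At an unadjusted p under 0.05, 16 genes were higher and 1 was lower, or 37.2% higher against 5.16% of all genes (2.87% of all genes were lower). The CD47- arrays lay wholly above the WT arrays for 14 of the 43 genes, 32.6%, against 7.30% of all genes. The reverse held for 1 gene, against 5.53% of all genes. The median log2 difference was 0.08 over the 43 genes and 0.0029 over all genes, and 31 of the 43 lay above 0. The p-values measure the spread between these preparations, which may in part be technical.

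**Figure D1:**
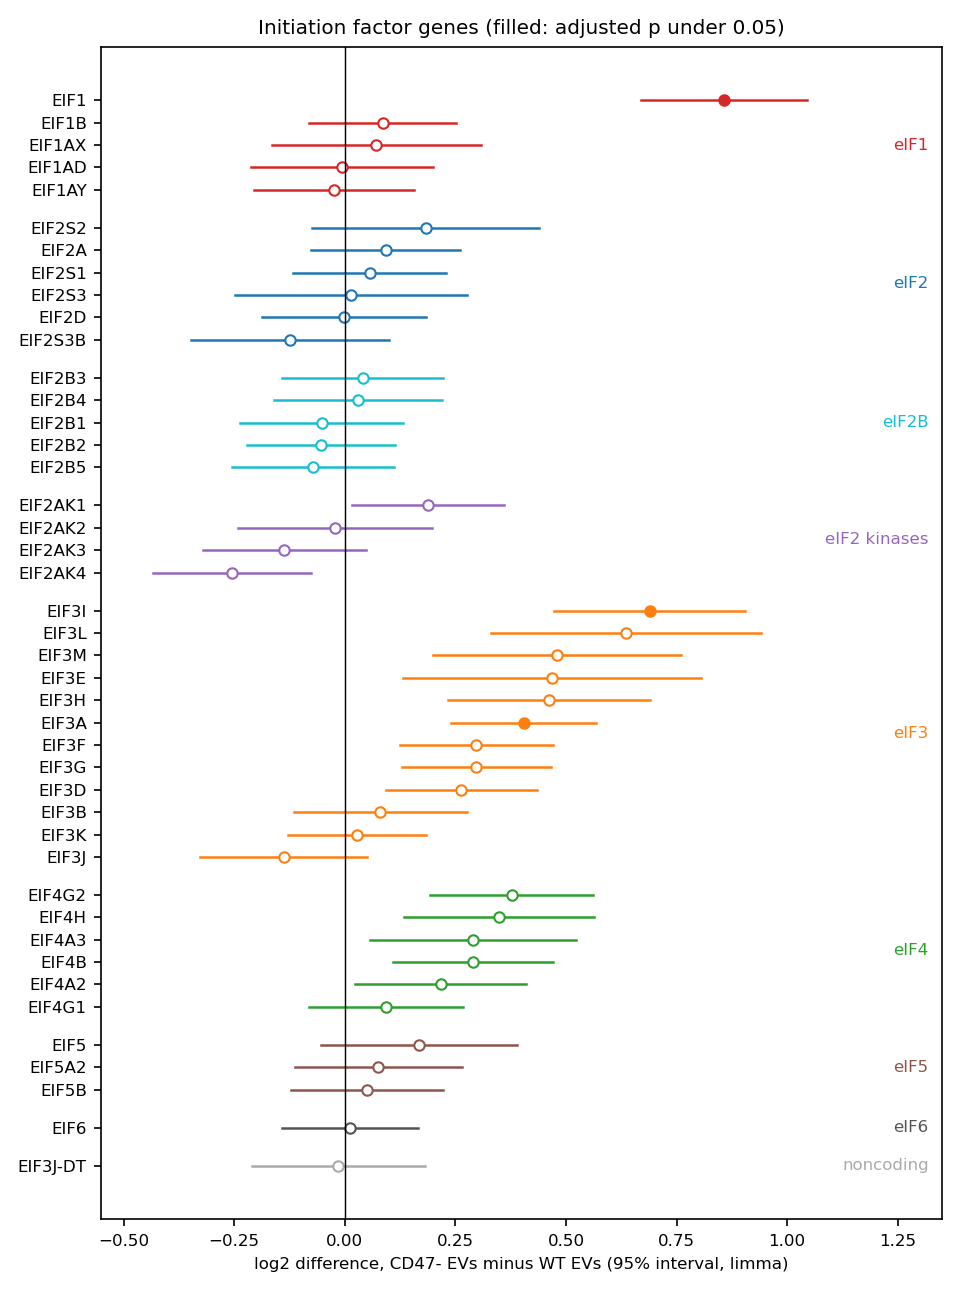
Log2 difference (CD47- EVs minus WT EVs, x axis) of the 43 initiation factor genes, grouped by factor, with the 95% interval from limma; filled points passed the adjusted p threshold of 0.05. EIF1, EIF3I and EIF3A are filled, the eIF3 and eIF4 genes lie mostly to the right of 0, the eIF2 and eIF2B genes lie on both sides of it, and the intervals of the 3 eIF5 genes include it.

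The factors differed in how their genes were placed, as the plot of all 43 differences shows. The 12 eIF3 genes had a median log2 difference of 0.35, with 2 called higher (16.7%, against 0.668% of all genes). In 8 of them CD47- arrays lay wholly above WT arrays (66.7%, against 7.30% of all genes). The 6 eIF4 genes had a median of 0.29 and none called, with 4 in which CD47- arrays lay wholly above WT arrays (66.7%, against 7.30% of all genes). The medians were 0.07 for the 5 eIF1 genes, 0.04 for the 6 eIF2 genes, 0.08 for the 3 eIF5 genes, -0.05 for the 5 eIF2B genes and -0.08 for the 4 eIF2 kinases. No test compared the factors with each other.

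EIF1 encodes the small protein that holds the scanning ribosome to the correct start codon. It had the largest difference of the 43 genes, and its probe set was the brightest of theirs, above every olfactory receptor gene. Its values were 8.97, 8.88 and 9.13 in CD47- EVs, against 8.07, 8.23 and 8.11 in WT EVs. The lowest CD47- array stood well above the highest WT array, and the spread within each group was small beside the gap. The means were 8.99 ± 0.13 in CD47- EVs and 8.13 ± 0.08 in WT EVs (SD, n = 3 each), a log2 difference of 0.86 (SE 0.09, 95% interval 0.67 to 1.04, 1.81-fold, limma adjusted p = 4.1e-04). That difference exceeded those of 99.8% of all genes. Leaving out any 1 array kept the call, with log2 differences of 0.79 to 0.91.

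The paralog EIF1B, whose protein is closely related to eIF1, had a smaller value. It averaged 4.44 ± 0.05 in CD47- EVs and 4.35 ± 0.07 in WT EVs (SD, n = 3 each), a log2 difference of 0.09 (SE 0.08, limma adjusted p = 0.879), and its probe set was dimmer than most olfactory receptor genes. The eIF1A genes, which encode the partner of eIF1 in scanning, were also near 0. EIF1AX had a log2 difference of 0.07 (95% interval -0.16 to 0.31), the Y-linked copy EIF1AY one of -0.02, and EIF1AD, which is named for a domain shared with eIF1A, one of -0.01. EIF1AX and EIF1AY averaged 6.72 and 2.80 over the 6 arrays, and whether their probes separate them was not tested. The sign of these differences changed when single arrays were left out.

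Within eIF3, EIF3I had the largest difference. It encodes a WD-repeat subunit that sits with EIF3B and EIF3G on the periphery of the complex. Its values were 6.08, 6.04 and 6.27 in CD47- EVs, against 5.26, 5.46 and 5.60 in WT EVs. All CD47- arrays lay above all WT arrays. The means were 6.13 ± 0.12 in CD47- EVs and 5.44 ± 0.17 in WT EVs (SD, n = 3 each), a log2 difference of 0.69 (SE 0.10, 95% interval 0.47 to 0.91, 1.61-fold, limma adjusted p = 0.0057). The call held without any 1 array, at adjusted p of 0.00987 to 0.0383 in limma.

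EIF3A, the largest subunit and the scaffold on which the others assemble, read 5.74, 5.89 and 5.81 in CD47- EVs, against 5.38, 5.45 and 5.40 in WT EVs. The groups did not overlap, and the WT arrays lay within 0.1 of each other. The log2 difference was 0.40 (SE 0.08, 95% interval 0.24 to 0.57, limma adjusted p = 0.0295). This call depended on single arrays: EIF3A stayed past the threshold without CD47- replicate 1 (adjusted p = 0.0477) and missed it without any other single array, up to an adjusted p of 0.129. When all 33297 probe sets of the array were tested together, EIF3A (limma adjusted p = 0.0762) and EIF3I (0.0525) both missed the threshold and EIF1 passed.

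**Figure D2:**
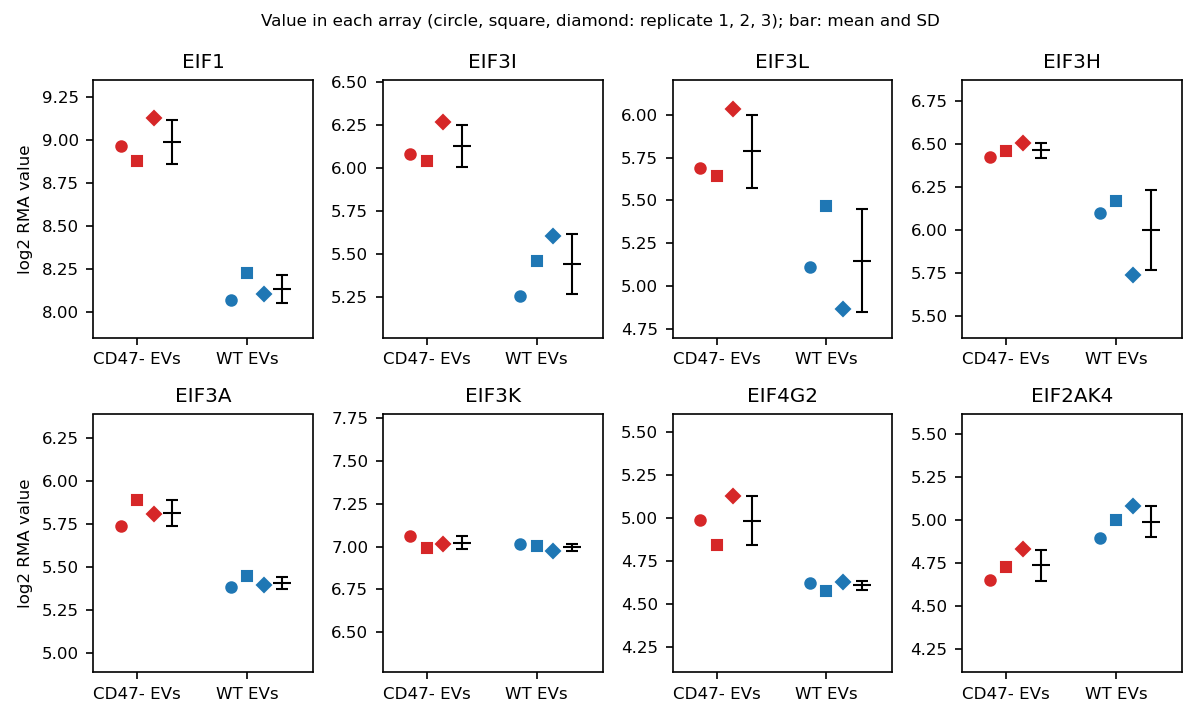
Log2 RMA value (y axis) of 8 initiation factor genes in each of the 3 CD47- arrays (red, left) and 3 WT arrays (blue, right), with the group mean and SD beside them; symbols mark the replicate number. The groups are apart for EIF1, EIF3I, EIF3L, EIF3H, EIF3A and EIF4G2, mixed for EIF3K, and in the opposite order for EIF2AK4.

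A further 6 eIF3 genes had CD47- arrays wholly above WT arrays without passing the test. EIF3L, a subunit of the structural core, read 5.69, 5.64 and 6.03 in CD47- EVs, against 5.11, 5.47 and 4.87 in WT EVs. Its spread within each group was wider than that of EIF3A, and the log2 difference of 0.64 (SE 0.14) did not pass (limma adjusted p = 0.0775). EIF3L passed in only 1 of the fits without 1 array. That fit left out WT replicate 2, the highest of the WT arrays (log2 difference 0.79, limma adjusted p = 0.0171). Over the fits without 1 array, the log2 difference fell to 0.50 at the least and the limma adjusted p rose to 0.302 at the most. The mean of EIF3L over the 6 arrays, 5.47, lay just below the olfactory receptor median of 5.49.

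EIF3H, which pairs with EIF3F in the core, read 6.42, 6.46 and 6.51 in CD47- EVs, against 6.10, 6.17 and 5.74 in WT EVs. The CD47- arrays lay close together and WT replicate 3 lay lowest, as the plot of array values shows. The log2 difference was 0.46 (SE 0.10, limma adjusted p = 0.0881), and it was 0.33 without WT replicate 3.

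The other 4 of these genes had smaller or more variable differences. They were EIF3M (0.48, SE 0.13), EIF3F (0.30, SE 0.08) and EIF3G (0.30, SE 0.08), and EIF3D (0.26, SE 0.08), whose protein can itself bind the cap of some mRNAs. Their limma adjusted p ran from 0.161 to 0.254. EIF3M encodes a core subunit, and its probe set was dimmer than most of the olfactory receptor genes, with a mean of 4.20 in CD47- EVs and 3.72 in WT EVs.

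EIF3E, a core subunit first known from a viral integration site in mouse mammary tumors, had a log2 difference of 0.47 with overlapping groups. It read 3.68, 3.96 and 4.25 in CD47- EVs, against 3.41, 3.83 and 3.24 in WT EVs (SE 0.15, limma adjusted p = 0.333). The highest WT array stood above the lowest CD47- array, and the probe set was dimmer than that of nearly all olfactory receptor genes.

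The remaining 3 eIF3 genes were near 0 or below it. EIF3K, which joins EIF3L in the core, read 7.06, 6.99 and 7.02 in CD47- EVs, against values between 6.97 and 7.01 in WT EVs. These 6 values interleave, and the log2 difference was 0.03 with an interval of -0.13 to 0.18. EIF3K was among the brighter of the 43 genes, above 97.0% of the olfactory receptor genes. EIF3B, the WD-repeat scaffold for EIF3I and EIF3G, had a log2 difference of 0.08 (95% interval -0.12 to 0.28). EIF3J, a loosely bound subunit, had one of -0.14 (95% interval -0.33 to 0.05, limma adjusted p = 0.776), and EIF3J-DT one of -0.01.

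EIF3C, the other large core subunit, has only probe sets shared with its near-identical copy EIF3CL and was therefore outside the 43 genes. The 2 shared probe sets held the same values on every array. They averaged a log2 difference of 0.29 with CD47- arrays wholly above WT arrays (limma adjusted p = 0.345 over all probe sets).

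Within a group, the same arrays tended to lie at the ends. CD47- replicate 2 was the lowest of its group in 8 of the 12 eIF3 genes and CD47- replicate 3 the highest in 8. WT replicate 3 was the lowest in 8 and WT replicate 2 the highest in 7. Over the 6 eIF4 genes, the same 4 arrays were the ends in 4, 5, 4 and 5 genes in that order. The mean level over the eIF3 genes was 5.74, 5.69 and 5.84 in CD47- EVs, against 5.39, 5.52 and 5.38 in WT EVs, which did not overlap.

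**Figure D3:**
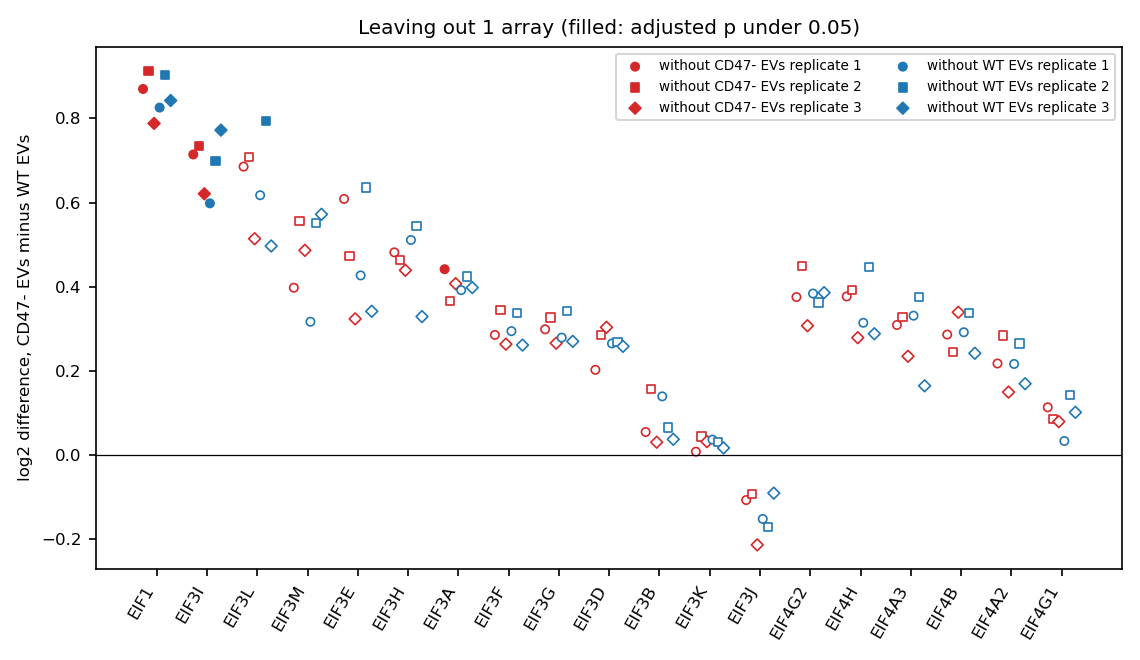
Log2 difference (CD47- EVs minus WT EVs, y axis) of EIF1 and the eIF3 and eIF4 genes when each of the 6 arrays was left out; red and blue symbols give the CD47- or WT array left out, and filled symbols passed an adjusted p of 0.05. EIF1 and EIF3I are filled in all 6 fits, EIF3A and EIF3L in 1 each, and EIF3J is the only one of them with differences below 0.

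All 6 eIF4 genes had a log2 difference above 0 and none passed the test. EIF4G2 encodes a relative of the eIF4G scaffold that lacks the part binding the cap-binding protein and serves translation that does not depend on it. It had the smallest p of the factor, with 4.99, 4.84 and 5.13 in CD47- EVs, against 4.62, 4.58 and 4.63 in WT EVs. The groups did not overlap and the WT arrays lay close together. The log2 difference was 0.38 (SE 0.08, 95% interval 0.19 to 0.56, limma adjusted p = 0.0842), on a probe set below the median of the olfactory receptor genes. Its paralog EIF4G1, the main scaffold between the cap and eIF3, had a log2 difference of 0.09 (95% interval -0.08 to 0.27). The third paralog, EIF4G3, had no probe set of its own and was not analysed here.

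The helicase genes and their helpers lay between these. EIF4H and EIF4B, whose proteins stimulate the helicase eIF4A, had log2 differences of 0.35 (SE 0.10) and 0.29 (SE 0.08), and the groups did not overlap in either. EIF4A3, a relative of the helicase that marks exon junctions on spliced mRNA, had one of 0.29 (SE 0.11), also without overlap. EIF4A2, an eIF4A helicase, had one of 0.22 (SE 0.09) with overlapping groups. The limma adjusted p of these 4 ran from 0.211 to 0.526.

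For EIF4B the value depended on the probe set. The brightest of its 3 gave the 0.29 above, and the other 2 gave log2 differences of -0.13 and 0.03. The second probe sets of EIF4H, EIF3F and EIF4A2 gave 0.31, 0.19 and 0.14, the same sign as those used, and that of EIF1AX gave -0.0047. A probe set that EIF4A2 shares with the small nucleolar RNA SNORA4 gave -0.11 (limma adjusted p = 0.846 over all probe sets). EIF4A1, the main eIF4A helicase, was read only by probe sets shared with other genes: the one shared with the readthrough gene SENP3-EIF4A1 had a log2 difference of 0.26, and the one shared with SNORA48, a small nucleolar RNA in an intron of EIF4A1, one of -0.13. Neither passed over all probe sets (limma adjusted p = 0.349 and 0.726).

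Genes for eIF2 showed no such placement. EIF2S1, EIF2S2 and EIF2S3 encode the alpha, beta and gamma subunits, and EIF2S3B is a second copy of EIF2S3. EIF2S2 had the smallest p of the 6, with 6.27, 6.68 and 6.30 in CD47- EVs, against 6.44, 6.12 and 6.14 in WT EVs. The groups overlapped, and 1 CD47- array carried most of the gap. The log2 difference was 0.18 (SE 0.12, 95% interval -0.07 to 0.44, limma adjusted p = 0.783). EIF2S3 and EIF2S3B, whose start windows above share the same pyrimidine run, had log2 differences of 0.01 and -0.12. Their mean levels were 6.70 and 3.44, and whether their probes separate them was not tested. EIF2S1 had one of 0.06. EIF2A and EIF2D, which are not subunits of eIF2 and deliver initiator tRNA by other routes, had log2 differences of 0.09 and -0.0021.

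The 5 eIF2B genes, for the alpha to epsilon subunits of the exchange factor, all lay between -0.07 and 0.04. EIF2B5, the catalytic subunit, had the smallest p, with 5.29, 5.50 and 5.53 in CD47- EVs, against 5.57, 5.49 and 5.48 in WT EVs. The groups overlapped, and the log2 difference was -0.07 (SE 0.08, 95% interval -0.25 to 0.11, limma adjusted p = 0.921).

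The 4 kinases of eIF2 respond to different stresses, and their genes did not lie one way. EIF2AK4 (GCN2, the sensor of amino acid shortage) was the only 1 of the 43 genes with CD47- arrays wholly below WT arrays. It read 4.65, 4.73 and 4.83 in CD47- EVs, against 4.90, 5.00 and 5.08 in WT EVs. The gap between the nearest arrays was small, and the log2 difference of -0.25 (SE 0.08, 95% interval -0.43 to -0.08) did not pass (limma adjusted p = 0.316). EIF2AK1 (HRI, the heme-regulated kinase) stood the other way without overlap, with a log2 difference of 0.19 (limma adjusted p = 0.558). EIF2AK3 (PERK, of the endoplasmic reticulum) had one of -0.14 and EIF2AK2 (PKR, activated by double-stranded RNA) one of -0.02.

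The last factors lay near 0 and none passed. EIF5 had the smallest p of its group, with means of 3.42 ± 0.16 in CD47- EVs and 3.26 ± 0.16 in WT EVs (SD, n = 3 each) and a log2 difference of 0.17 (95% interval -0.05 to 0.39, limma adjusted p = 0.764). Its probe set was dimmer than that of most olfactory receptor genes. EIF5B had a log2 difference of 0.05 and EIF5A2 one of 0.08. EIF5A, whose protein acts mainly in elongation, shares 3 probe sets with its copy EIF5AL1, and these had log2 differences of 0.17, 0.29 and 0.26. All 3 were without overlap and none passed over all probe sets (limma adjusted p = 0.648, 0.237 and 0.361). EIF6 averaged 5.92 ± 0.01 in CD47- EVs and 5.91 ± 0.04 in WT EVs (SD, n = 3 each), a log2 difference of 0.01 with an interval of -0.14 to 0.17.

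The 3 calls were all made among genes above the olfactory receptor median of 5.49. Of these 3, EIF3I and EIF3A averaged 5.78 and 5.61 over the 6 arrays, below the 95th percentile of the gauge, 6.79. Their means in WT EVs, 5.44 and 5.41, lay below the median of the gauge. Of the 43 genes, 21 lay above the olfactory receptor median, with 3 called and 11 without overlap in which CD47- was higher. Among all genes above that median, 1.47% were called higher and 9.46% had CD47- arrays wholly above. The 22 genes at or below it had none called, 3 with CD47- arrays wholly above and 1, EIF2AK4, with them wholly below. Among all genes at or below it, 0.152% were called higher and 5.91% had CD47- arrays wholly above. Across the 43 genes, which are not independent replicates and share the same 6 arrays, the log2 difference correlated with the mean level at r = 0.36, against 0.16 over all genes. Among genes above the 95th percentile of the gauge, 6.94% were called higher. Only 3 of the 43 stood there, EIF1, EIF3F and EIF3K, with log2 differences of 0.86, 0.30 and 0.03.

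**Figure D4:**
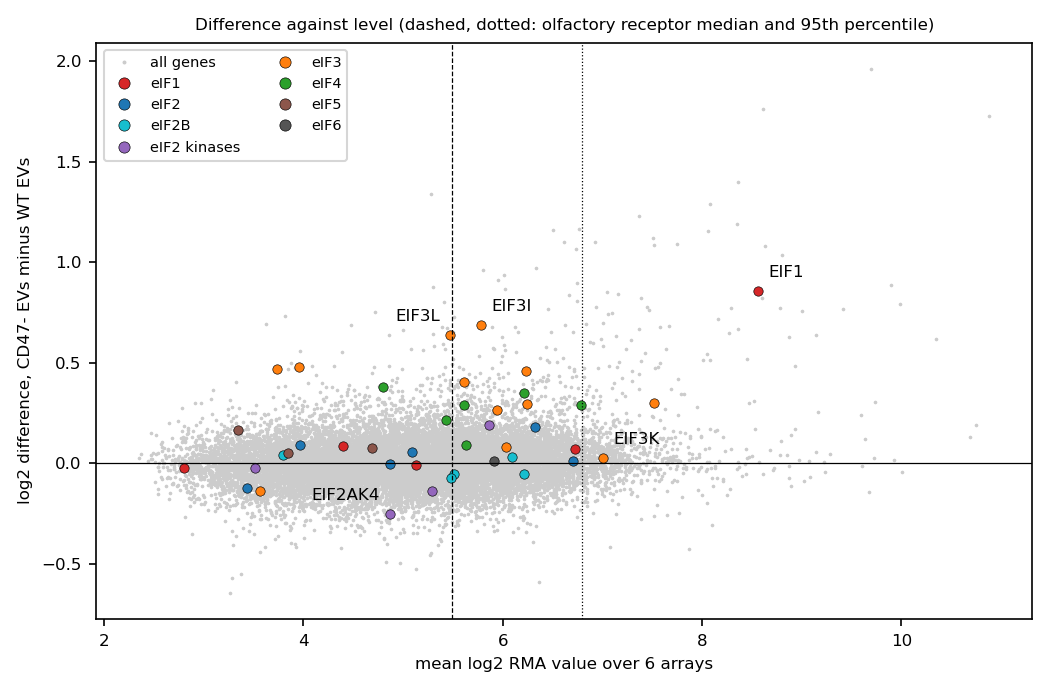
Log2 difference (CD47- EVs minus WT EVs, y axis) against mean log2 RMA value over the 6 arrays (x axis) for the initiation factor genes, colored by factor, and all genes in gray; the dashed and dotted lines are the median (5.49) and 95th percentile (6.79) of the olfactory receptor genes. EIF1 stands alone among the 43 genes at a high level and a large difference, and EIF3K lies near 0 beyond the dotted line.

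Of the 10 genes with a TOP-like start, EIF2A and EIF2D included, none was called. Of the 26 genes with a window read and without such a start, 2 were, EIF1 and EIF3I. Of the 43 genes 6.98% were called, against 0.668% of all genes called higher. Counts this small carry little, and no test compared them. No window was read for EIF3A (log2 difference 0.40), EIF3L (0.64), EIF3E (0.47), EIF3H (0.46), EIF3G (0.30), EIF2AK1 (0.19) and EIF2S2 (0.18). The medians that follow leave these genes out. The median log2 difference was 0.15 with a TOP-like start (range -0.12 to 0.48) and 0.05 without one. The 4 genes with runs of 8 or more had log2 differences of 0.26 for EIF3D, 0.30 for EIF3F, 0.03 for EIF3K and 0.09 for EIF2A.

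Other translation genes give the surroundings of these values. Of 65 cytoplasmic ribosomal protein genes, 19 were called higher (29.2%, against 0.668% of all genes) and none lower. Their median log2 difference was 0.34, and CD47- arrays lay wholly above in 41 (63.1%, against 7.30% of all genes). Of the 65, 40 lay above the 95th percentile of the gauge. Among all genes there, 6.94% were called higher and 17.5% had CD47- arrays wholly above. Of 12 measured elongation factor genes, 3 were called higher (25%) and none lower, with a median of 0.08. These were EEF1G (1.08), EEF2 (0.90) and EEF1A1 (0.89), the gamma subunit of the exchange factor for eEF1A, the translocase and the carrier of aminoacyl-tRNA. EEF1A1 averaged 10.34 ± 0.19 in CD47- EVs and 9.45 ± 0.16 in WT EVs (SD, n = 3 each).

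Of 24 measured partners of initiation that lie outside the symbol rule, 1 was called higher (4.17%, against 0.668% of all genes). This was PABPC1, the poly(A)-binding protein that joins the tail of an mRNA to eIF4G at its cap. It averaged 7.43 ± 0.02 in CD47- EVs and 6.69 ± 0.26 in WT EVs (SD, n = 3 each), a log2 difference of 0.74 (limma adjusted p = 0.00708). The median of these partners was 0.03. No gene was called among 10 measured termination and recycling factors (median 0.09) or among 12 genes induced in the integrated stress response, the program that follows eIF2 phosphorylation (median 0.0019).

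T cell markers lay above 0 for 11 of 13 genes, without a call. Their median log2 difference was 0.07 (range -0.04 to 0.37), against 0.35 for the eIF3 genes. None of the 13 passed, and 3 had CD47- arrays wholly above WT arrays (23.1%, against 7.30% of all genes). The log2 of the summed unlogged values of the 13, in which the brightest genes weigh most, ran from 9.93 to 9.95 in CD47- EVs. In WT EVs it ran from 9.75 to 9.88. The lists for B cells, myeloid cells, erythroid cells, epithelium, endothelium and liver also had no called gene and none with CD47- arrays wholly above. Epithelial, endothelial and liver markers had 1 gene each, of 5, with CD47- arrays wholly below, and the log2 difference was above 0 for 3, 1 and 0 of their genes in that order. It was above 0 for 2 of 5 B cell, 2 of 4 myeloid and 1 of 3 erythroid markers. The part of these marker levels in the differences of the initiation factor genes was not tested.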

How the data were processed

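RNA from 3 CD47- and 3 WT EV preparations was hybridized by the authors to Affymetrix HuGene 1.0 ST arrays. The deposited values are log2 values that the authors made with RMA in Affymetrix Expression Console, which corrects background, normalizes by quantiles and summarizes probe sets. The sources used here give no tool versions. The labels call the array both human and mouse, and the human annotation was used. Groups and replicate numbers came from the titles.

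Gene names came from the platform annotation. Of 33297 probe sets, 19460 had 1 symbol, 1754 had several and 12083 had no gene. For the 769 genes read by more than 1 probe set, the brightest was used. Of the resulting 18417 genes, 18392 matched RefSeq. No filter on dim genes was applied.

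Groups were compared with limma 3.58.1 (lmFit and eBayes) in R 4.3.3, two-sided, on all genes. Genes were called at a Benjamini-Hochberg adjusted p under 0.05. Figures were drawn with Python 3.11.15 and matplotlib 3.10.9. On data simulated for CD47- against WT EVs over 18417 genes, the fit recovered 62% of log2 changes of 0.5, 98% of 1, 100% of 2 and 96% of -1, and 0.559% of its calls were false. The simulated noise was normal and independent between genes, with 50 changed genes of each size in 1 run. In the real data the same arrays tended to lie at the ends across genes, which the simulation left out. Its rates may therefore not hold for the real calls. The number of arrays, 3 per group, limits the precision. 

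Values per array were given for the called genes, for the gene with the smallest p in a factor without a call, and for further eIF3 genes chosen after their values were seen (EIF3L, EIF3H, EIF3E and EIF3K). Paralogs were set side by side. In other lists, only called genes were named. The genes and lists were chosen with earlier results of these data known. Alternatives were a block for replicate number, centering on olfactory receptor genes, quantile normalization applied again, a trended robust prior variance, weighting of arrays, leaving out dim genes, unshared variance, other uses of several probe sets, an unadjusted threshold and leaving out each array. Testing all probe sets was added after seeing the data. Protein sequences were not used here.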

Additional observations from a re-analysis of the deposited data

How the results depend on the processing

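Against 3 initiation factor genes called higher, centering each array on the olfactory receptor genes gave 6 (EIF3L, EIF3H and EIF4G2 added), testing only genes above the olfactory receptor median gave 4 (EIF3H added, and 156 of all genes higher), testing all probe sets gave 1, unshared variance gave 0, an unadjusted p gave 16 (and 1 lower, against 0), and leaving out 1 array gave 2 to 3. For all genes, 123 higher and 3 lower became 241 higher after centering, 1 higher and 0 lower with unshared variance, 7 lower with all probe sets, 950 higher and 529 lower at an unadjusted p, and 53 to 96 higher and 1 to 5 lower without 1 array. The fewest came without WT replicate 3 (53), CD47- replicate 3 (58) and CD47- replicate 2 (77). Centering moved the median of all genes to 0.06 and the medians of eIF2, eIF2B and eIF3 to 0.10, 0.0090 and 0.41. The eIF2B median ran from -0.065 to 0.0034 without 1 array. With the replicate block, 2 initiation factor genes (EIF1 and EIF3I) and 106 of all genes were called higher, and EIF3A missed the threshold (limma adjusted p = 0.0556). Same-numbered arrays deviated together at r = 0.02, -0.02 and -0.04, and differently numbered ones at -0.04 to 0.05. These values gave no sign of pairing by number. They cannot show how the preparations were made, and the titles do not state it. Signs changed for 14 of the 43 genes, whose differences were 0.07 or less in size. Centering turned EIF1AD to 0.055, EIF1AY to 0.037, EIF2AK2 to 0.040, EIF2B1 to 0.0090, EIF2B2 to 0.0079, EIF2D to 0.059 and EIF3J-DT to 0.047. Array weights turned EIF1AD to 0.022, EIF2D to 0.0027 and EIF2S3 to -0.026. Further quantile normalization turned EIF2S3 to -0.021, EIF3K to -0.016 and EIF6 to -0.0058. Without 1 array, the log2 difference ranged from -0.11 to 0.064 for EIF1AD, -0.053 to 0.17 for EIF1AX, -0.078 to 0.027 for EIF1AY, -0.12 to 0.044 for EIF2AK2, -0.096 to 0.0049 for EIF2B1, -0.012 to 0.096 for EIF2B3, -0.026 to 0.10 for EIF2B4, -0.12 to 0.0040 for EIF2B5, -0.047 to 0.075 for EIF2D, -0.10 to 0.16 for EIF2S3, -0.094 to 0.041 for EIF3J-DT and -0.0059 to 0.030 for EIF6. The causes of these changes were not tested.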
